A study of Mus musculus with 6 samples.

Results

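Canonical Yap target genes are genes whose transcription is switched on when Yap enters the nucleus. The 10 described here, Ccn1, Ccn2, Ankrd1, Amotl2, Ptpn14, Axl, Crim1, Fjx1, Nuak2 and Myof, were taken by symbol from a table of 21526 genes, and all 10 were found. RNA was measured in epithelial cells released with EDTA from the corpus of the mouse stomach, in 3 libraries of normal stomach (Normal) and 3 libraries of Yap-activated gastric cancer (Yap-activated). Normal mice had the genotype WT. Yap-activated mice had the genotype CluCreERT2;R26rtTA;HA-Yap+, that is, a tamoxifen-dependent Cre recombinase at the Clu gene, the doxycycline-dependent activator rtTA at Rosa26, and an HA-tagged Yap transgene. Per the labels, mice of both groups were injected with 2 mg tamoxifen on 5 days in a row and ate doxycycline food for the 14 days before tissue was taken. Recombination starts only in cells that express Clu, and the controls lack all 3 alleles, so what Cre or rtTA may do on their own cannot be told apart from an effect of Yap. The labels give neither the age of the mice nor whether each library came from its own mouse, so the spread behind each p-value is that of these libraries and may partly be technical.

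Yap and its relative Taz do not bind DNA themselves. When the Hippo kinases are inactive they stay in the nucleus and bind TEAD transcription factors, which recognise the letters GGAATG near target genes. In the stomach, as in other epithelia, this program is associated with repair after injury and with tumour growth. Its targets include secreted matrix proteins, surface receptors and kinases, and also proteins that hold Yap back, so that part of the program is a negative feedback.

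RefSeq start-site windows, which run from 250 bases before to 50 bases after a transcription start (build GRCm38.p6), were found for 7 of the 10 genes. The genes with no window were Ccn2, Fjx1 and Nuak2. The TEAD letters were searched on both strands, where a site on the opposite strand reads CATTCC, and 6 of the 7 windows held them, against 14.7% of all 32841 windows of that length. Ankrd1 was the only one of the 7 with 2 matches, which 1.36% of all windows have. The stretches are shown because they hold the letters by which TEAD factors bind DNA; each is 30 bases long, 5′ to 3′ on the strand of the gene, with the match in capitals.
Ccn1, chr3:145650071-145650100, minus strand: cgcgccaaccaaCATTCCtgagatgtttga
Ankrd1, farther match, chr19:36120037-36120066, minus strand: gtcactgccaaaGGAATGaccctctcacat
Ankrd1, nearer match, chr19:36119950-36119979, minus strand: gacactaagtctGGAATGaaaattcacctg
Amotl2, chr9:102717727-102717756, plus strand: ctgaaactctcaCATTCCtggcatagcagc
Ptpn14, chr1:189728110-189728139, plus strand: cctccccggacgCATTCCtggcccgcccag
Axl, chr7:25788949-25788978, minus strand: ggaaattctacaGGAATGtttaccagaccc
Crim1, chr17:78200157-78200186, plus strand: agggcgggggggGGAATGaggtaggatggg
The matches began between 65 bases (Amotl2) and 233 bases (Axl) before the RefSeq start. The gene spans given further on are those of GENCODE, whose starts can differ: at Amotl2 and Ankrd1 the GENCODE gene starts farther upstream, and the matches lie inside its span. Myof had no match in its window. The letters of AP-1 sites, TGANTCA, which read the same on both strands, were in none of the 7 windows, against 7.81% of all windows. A match of letters is a description of the sequence and not a measured binding site.

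The 250 bases before the Ccn1 start are shown in full as the setting of a single match in one of the genes with the largest rises; they lie at chr3:145649986-145650235 on the minus strand.
Ccn1 upstream: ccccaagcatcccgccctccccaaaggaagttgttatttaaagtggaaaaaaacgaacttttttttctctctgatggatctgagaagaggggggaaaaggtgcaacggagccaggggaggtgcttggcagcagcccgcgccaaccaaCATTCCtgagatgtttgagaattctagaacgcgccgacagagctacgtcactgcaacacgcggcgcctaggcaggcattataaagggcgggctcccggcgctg

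**Figure D1:**
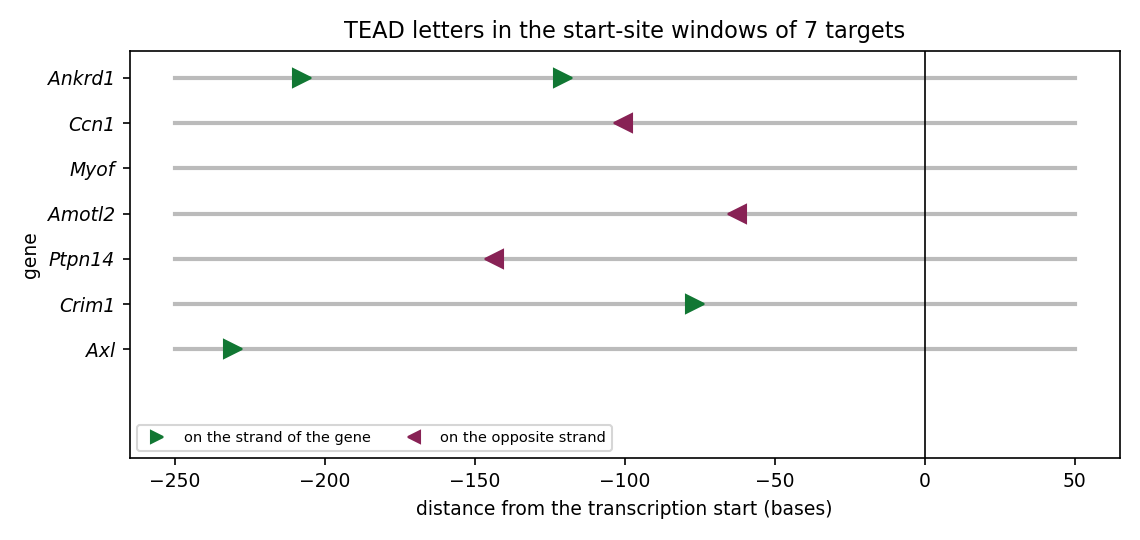
Each grey line is the window of 1 gene, from 250 bases before to 50 bases after its transcription start (x axis, in bases); arrowheads mark GGAATG on the strand of the gene (right-pointing) or on the opposite strand (left-pointing). Ankrd1 has 2 matches, Ccn1, Amotl2, Ptpn14, Crim1 and Axl have 1 each, and Myof has none.

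In Yap-activated tissue 9 of the 10 targets rose and Axl did not pass the threshold (edgeR quasi-likelihood test, adjusted p under 0.05 over all genes tested). Among all 14600 genes tested 29.8% were called higher and 29.7% lower, 59.5% in either direction. The 10 genes had a median log2 fold change of 2.80, from 0.74 to 8.64, where the median over all genes tested was 0.01. At 9 of the 10 targets every Yap-activated library lay above every Normal library, as it did at 33.2% of all genes tested. Against the stricter null of a 2-fold change 7 targets were called higher, where 10.9% of all genes were, and Ptpn14, Crim1 and Axl were not. Ankrd1 and Fjx1 passed the filter on low counts only through the Yap-activated libraries and so had to differ. Both are included in the median of 2.80 and in the counts of 9 and 7, which the filter thus partly fixed. Of the other 8 targets, 7 rose. Expression is given as CPM, read counts scaled to a common library total, here by TMM, which adjusts each library for its make-up.

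Library totals ran from 25580734 to 48440033 counts. Correlations of log2 CPM between libraries were 0.977 to 0.993 within groups. The labelled tissue was checked by its markers. Of 6 epithelial markers 4 rose, and their summed level went from 4661-5545 CPM in Normal to 9170.4-10352 CPM in Yap-activated libraries. All 6 parietal markers fell, from a summed 21608-29439 CPM to 42.7-59.9 CPM, and so did the 3 chief cell markers found in the table. Among all genes tested 29.8% were called higher and 29.7% lower. The parietal marker Slc26a7, with 5, 2 and 11 reads in Yap-activated libraries, passed the filter only through the Normal libraries. So did the chief cell marker Pga5, with 14, 8 and 16 reads, and both thus had to differ. In bulk RNA fewer cells of a type and less RNA per cell cannot be told apart, and the scaling rests on this changed mix: scaling by library totals alone shifted the median gene up by 0.49 on the log2 scale and made 76.6% of calls higher, where TMM gave 50.0%.

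**Figure D2:**
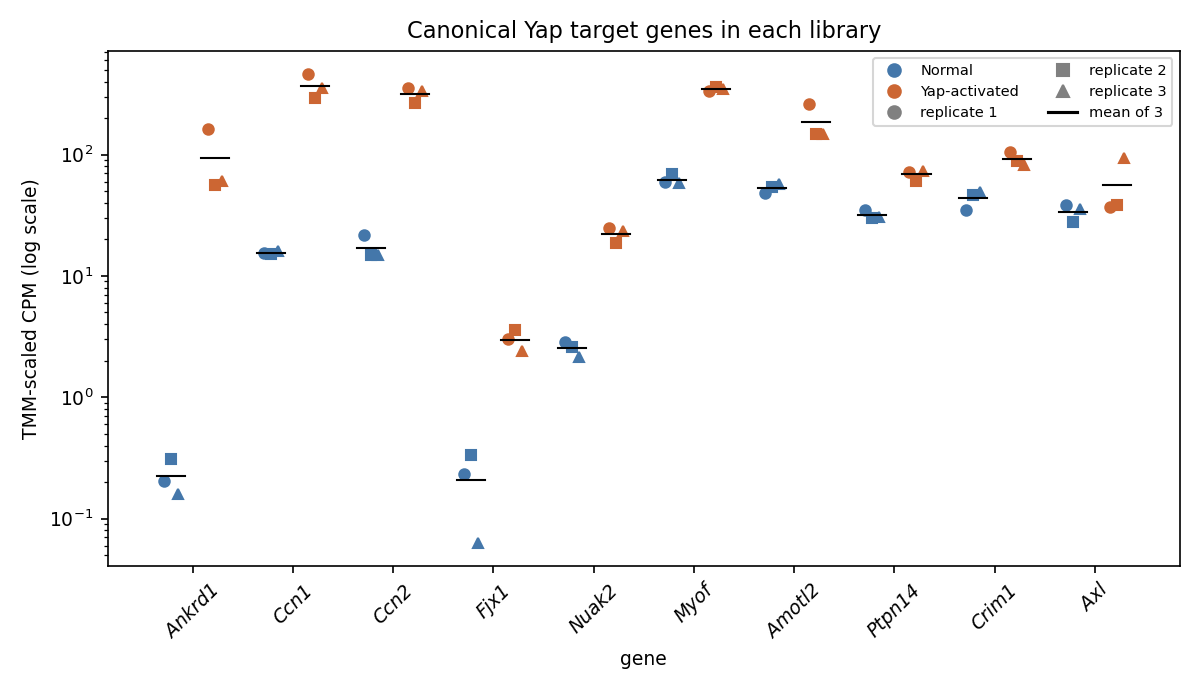
Level of each target (y axis, TMM-scaled CPM on a log scale) in the 3 Normal (blue) and 3 Yap-activated (orange) libraries, with marker shapes for the replicate number and a line at the mean of 3. The groups do not overlap at 9 genes, and at Axl 2 of the 3 Yap-activated libraries sit at or near the Normal level.

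The level of Yap1 itself comes first. Yap1 had 100.3, 105 and 106 CPM in Normal replicates 1 to 3, and 3085, 1468 and 1651 CPM in Yap-activated replicates 1 to 3, so replicate 1 stood above the others. That is a log2 fold change of 4.32 (SE 0.31), with an adjusted p of 2.19e-05. Whether the transgene's reads are all counted as Yap1 is not known. Of its partners, Tead4 rose by 5.31 on the log2 scale, Tead2 by 2.48, the Taz gene Wwtr1 by 1.69, Tead1 by 1.55 and Tead3 by 0.98, while Vgll4, a competitor of Yap for TEAD binding, was at -0.44. Vgll4 (adjusted p = 0.0223) did not pass when Normal replicate 3 (adjusted p = 0.079) or Yap-activated replicate 2 (0.0593) was left out, and its value was 0.048 with library totals alone.

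Ccn1 and Ccn2 encode secreted matricellular proteins that bind integrins and growth factors, and they are the targets most often read as a measure of Yap activity. Ccn1 (chromosome 3 from 145646976 to 145649981, minus strand, GRCm38) had 15.5, 15.1 and 16.0 CPM in Normal and 460, 290 and 357 CPM in Yap-activated replicates 1 to 3. The lowest Yap-activated library was far above the highest Normal library, and replicate 1 was the highest. The rise was 23.8-fold (log2 fold change 4.57, SE 0.19, adjusted p = 2.15e-06). Ccn2 (chromosome 10 from 24595442 to 24598683, plus strand) had 21.6, 14.8 and 15.0 CPM in Normal and 354, 264 and 336 CPM in Yap-activated libraries. It rose by 18.6-fold (log2 fold change 4.22, SE 0.21, adjusted p = 3.54e-06), again with no overlap and the highest level in replicate 1. An annotated transcript, Gm15270, overlaps Ccn2 on the opposite strand, and whether reads were counted by strand is not known.

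Ankrd1 encodes an ankyrin-repeat protein of muscle and of the nucleus, and it showed the largest rise of the 10. It lies on chromosome 19 from 36111961 to 36120099 (minus strand). Normal libraries held 7, 13 and 5 reads of it, or 0.204, 0.309 and 0.158 CPM, which is close to silence. Yap-activated replicates 1 to 3 held 4798, 2371 and 3245 reads, or 163, 56.6 and 60.4 CPM, with replicate 1 well above the others. At 8.64 (SE 0.65) its log2 fold change exceeded that of 99.9% of genes tested (adjusted p = 5.43e-05). Ankrd1 passed the filter only through the Yap-activated libraries and so had to differ, and its rank and p-value are no support for a rise. Since the Normal level rests on 25 reads, the ratio of the scaled sums of reads, 359.5, has an exact 95% interval of 243 to 556, which covers counting error only. With Yap-activated replicate 1 left out its value was 7.98, lower by more than 1.5-fold on the linear scale.

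Amotl2 and Ptpn14 are targets that act back on Yap: the motin Amotl2 binds Yap and the phosphatase Ptpn14 keeps it in the cytoplasm. Amotl2 (chromosome 9 from 102716672 to 102733418, plus strand) had 47.8, 53.8 and 57.3 CPM in Normal and 263, 148 and 148 CPM in Yap-activated libraries. All Yap-activated libraries were higher, replicate 1 by the most, a log2 fold change of 1.82 (SE 0.24, adjusted p = 4.96e-04). Ptpn14 (chromosome 1 from 189728268 to 189876695, plus strand) went from 35.0, 30.2 and 30.4 CPM to 71.5, 60.4 and 73.9 CPM, a log2 fold change of 1.11 (SE 0.12, adjusted p = 1.23e-04). Its rise was small but even, and the Yap-activated libraries differed from each other by no more than 1.22-fold. An antisense transcript, Gm26574, and a processed pseudogene, Gm30280, lie within Ptpn14.

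Nuak2 is a kinase related to AMPK. It lies on chromosome 1 from 132316126 to 132333488 (plus strand) and went from 2.85, 2.61 and 2.15 CPM to 24.7, 18.8 and 23.4 CPM. The log2 fold change of 3.13 (SE 0.18, adjusted p = 7.55e-06) came with no overlap between the groups. Fjx1, the mouse counterpart of the fly kinase four-jointed, lies on chromosome 2 from 102449366 to 102452499 (minus strand) and was the least abundant target in Yap-activated tissue. Normal libraries held 8, 14 and 2 reads of Fjx1 (0.233, 0.333 and 0.0632 CPM) and Yap-activated libraries 89, 149 and 129 reads (3.02, 3.55 and 2.40 CPM). The groups did not overlap, and the log2 fold change came to 3.77 (SE 0.50, adjusted p = 4.05e-04). Fjx1, too, passed the filter only through the Yap-activated libraries and so had to differ. The ratio of the scaled sums, 13.2, had an exact 95% interval of 8.73 to 20.9 from counting alone.

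Myof, a ferlin of membrane fusion and repair, varied least of the targets among the Yap-activated libraries. It lies on chromosome 19 from 37899036 to 38043577 (minus strand) and went from 59.9, 68.6 and 58.5 CPM to 332, 364 and 344 CPM. The 3 Yap-activated libraries lay within 1.09-fold of each other, with a log2 fold change of 2.48 (SE 0.12, adjusted p = 2.98e-06). Crim1, a transmembrane protein with cysteine-rich repeats that bind growth factors of the BMP family, lies on chromosome 17 from 78200248 to 78376592 (plus strand). It went from 34.6, 46.7 and 49.5 CPM to 105, 88.2 and 81.3 CPM, which do not overlap, a log2 fold change of 1.07 (SE 0.16, adjusted p = 7.72e-04). The gene Fez2 overlaps the 3′ end of Crim1 on the opposite strand.

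Axl, a receptor tyrosine kinase of the family that also holds Tyro3 and Mertk, was the exception. It lies on chromosome 7 from 25757273 to 25788705 (minus strand). Normal libraries had 38.4, 27.7 and 35.3 CPM and Yap-activated replicates 1 to 3 had 36.9, 38.5 and 94.0 CPM. Replicates 1 and 2 were thus at the top of the Normal range, and the mean rise came from replicate 3. edgeR gave Axl a log2 fold change of 0.74 (SE 0.38, adjusted p = 0.128), and without Yap-activated replicate 3 it was 0.16 (adjusted p = 0.397). Axl passed the threshold in 2 of the 16 alternatives that test against no change, DESeq2 (0.75, adjusted p = 0.0483) and scaling by library totals alone (1.25, adjusted p = 0.0216).

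Some genes of tissue macrophages, picked out here after their values were seen, stood out in the same library. C1qa, a complement gene, had 16.5, 16.2 and 86.2 CPM in Yap-activated replicates 1 to 3 against 15.2 to 16.4 CPM in Normal. C1qb had 14.3, 14.0 and 89.1 CPM, C1qc 12.3, 14.1 and 80.7 CPM, and the macrophage marker Adgre1 3.83, 2.31 and 13.0 CPM. Mertk, the relative of Axl, had 6.61, 4.06 and 15.5 CPM. In each of these 5 genes, as in Axl, replicate 3 was the highest of the 6 libraries. Other markers of the same list had a different pattern. Csf1r had 53.4 and 90.0 CPM in Yap-activated replicates 1 and 3 and lay within its Normal range in replicate 2. Lyz2 had 193, 81.1 and 272 CPM and the leukocyte gene Ptprc 33.3, 14.3 and 60.1 CPM in replicates 1 to 3. These 3 genes were thus well above all Normal libraries in replicate 1 too, where Axl was not. Cd68 had 9.46, 15.3 and 23.5 CPM, against at most 6.29 CPM in Normal. Cd14, at 401, 209 and 226 CPM, and Itgam, at 9.22, 1.53 and 8.37 CPM, were highest in replicate 1. Over the whole list of 10 macrophage and myeloid markers 5 rose, none fell and none was at 0 counts, and the summed level was 178-181 CPM in Normal and 746, 389 and 949 CPM in Yap-activated libraries, of which Cd14 and Lyz2 made up more than all the others together. The part of these cells in the Axl value was not tested, and some fibroblast genes given below were also highest in replicate 3.

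**Figure D3:**
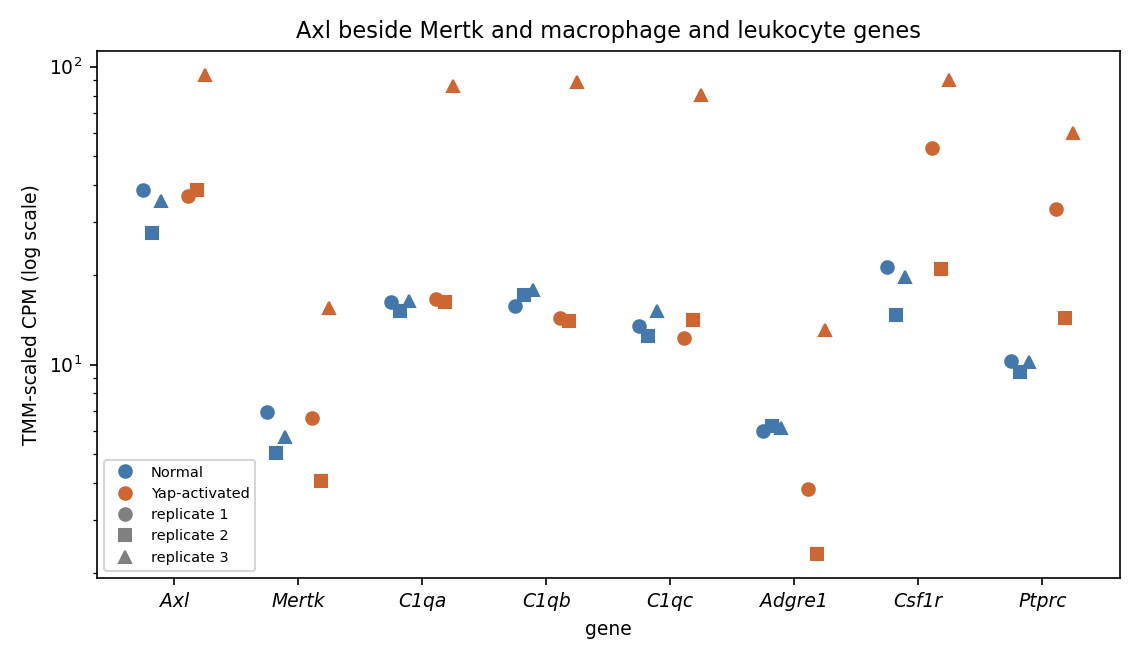
Level (y axis, TMM-scaled CPM on a log scale) of Axl, Mertk and 6 macrophage and leukocyte genes in the Normal (blue) and Yap-activated (orange) libraries, with marker shapes for the replicate number. For Axl, Mertk, C1qa, C1qb, C1qc and Adgre1 the triangle of Yap-activated replicate 3 is the highest point and the others lie at or near the Normal level, or below it for Adgre1; Csf1r and Ptprc are also above Normal in replicate 1.

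Fibroblasts, smooth muscle and endothelium also express several of these targets, Ccn1, Ccn2 and Axl among them. Of 10 fibroblast markers 5 fell and 1 rose, from a summed 923-1385 CPM in Normal to 409.6-689.5 CPM in Yap-activated libraries. Pdgfra, however, had 25.2, 22.5 and 47.4 CPM in Yap-activated replicates 1 to 3, against 23.4 to 31.1 CPM in Normal. Pdgfrb, Thy1, Col1a2, Col3a1, Col6a1, Lum and Dpt were also highest in replicate 3 among the Yap-activated libraries, and Col1a1 and Dcn in replicate 1. The part of fibroblasts in the Axl value was not tested. Endothelial markers, of which 6 of 9 fell, went from 196-209.8 to 50.4-88.3 CPM. Of 8 smooth muscle markers 4 fell, with sums of 242-366 and 111-256 CPM that overlap. Among 5 mesothelial markers Msln alone rose, and the other 4 had 0.668 to 3.61 CPM in all Yap-activated libraries. No marker of these lists was at 0 counts in any library. Ccn1 is also an immediate early gene. Of 16 immediate early genes 15 rose, where 29.8% of all genes tested were called higher, and Klf2 at 0.31 log2 did not pass. Their summed level went from 540.4-581 CPM to 2813-3029 CPM. Fosl1, 1 of the 15, had 16, 8 and 3 reads in Normal. It passed the filter only through the Yap-activated libraries and so had to differ. The part of the immediate early genes in the Ccn1 value was not tested.

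Levels of different genes were compared per kilobase of exon, as TMM-scaled CPM divided by the length of the annotated exons. In Normal the order ran from Amotl2 at 8.42 ± 0.762 through Ccn1 at 7.69 ± 0.207, Crim1 at 7.27 ± 1.32, Axl at 6.71 ± 1.10, Ccn2 at 5.98 ± 1.35 and Myof at 4.94 ± 0.434 CPM per kb (SD, n = 3). The libraries of neighbours in this order overlapped throughout these 6 genes. Ptpn14 followed at 2.38 ± 0.203 and Nuak2 at 0.648 ± 0.0913, and Ankrd1 at 0.0775 ± 0.0268 and Fjx1 at 0.0669 ± 0.0435 CPM per kb could not be ranked against each other. In Yap-activated tissue Ccn1 led at 183 ± 42.4 and Ccn2 was next at 111 ± 16.6 CPM per kb, and their libraries did not overlap. By its mean, Ankrd1 had gone from rank 9 to rank 3, at 32.3 ± 20.8 CPM per kb, ahead of Amotl2 at 29.7 ± 10.6 and Myof at 27.5 ± 1.26. That rank came from replicate 1, at 56.3 CPM per kb. In replicates 2 and 3 Ankrd1, at 19.6 and 20.9 CPM per kb, was below both Amotl2 and Myof. Crim1 at 15.2 ± 1.99 and Axl at 11.2 ± 6.46 overlapped, as did Nuak2 at 5.69 ± 0.793 and Ptpn14 at 5.12 ± 0.535, and Fjx1 was lowest at 0.954 ± 0.184 CPM per kb. The target with the highest mean per kilobase was thus Amotl2 in Normal and Ccn1 in Yap-activated tissue.

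The 3 Yap-activated libraries also show how far the targets went with Yap1. With 3 libraries no correlation can be tested, so the values are given side by side. Yap1 was highest in replicate 1 and lowest in replicate 2, a 2.10-fold range. Ccn1, Ccn2, Ankrd1, Amotl2 and Nuak2, 5 of the 10, had the same order, and Crim1 was also highest in replicate 1. The share of all genes tested that had this order was not computed, so the count does not set the targets apart. Outside the set, Cd14 and Nr4a1 had it too, and F3 and Jun did not. Axl and Ptpn14 were highest in replicate 3, and Fjx1 and Myof in replicate 2. Ankrd1, with a 2.87-fold range, and Axl, with a 2.55-fold range, spread more widely than Yap1, and Amotl2 nearly as widely at 1.78-fold. Ccn1 ranged over 1.59-fold, Ccn2 over 1.34-fold and Nuak2 over 1.32-fold.

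Relative to Yap1, every target except Ankrd1 was lowest in replicate 1. Yap1 was itself highest there, and its spread exceeded that of 82.9% of genes tested. A gene that varied little thus had to be lowest in replicate 1, so this is no trait of the targets. Per 100 CPM of Yap1, Ccn1 had 14.9 CPM in replicate 1 and 19.7 and 21.6 CPM in replicates 2 and 3, and Myof had 10.8, 24.8 and 20.8 CPM. Ankrd1 was the only target with its highest ratio in replicate 1, at 5.27 CPM per 100 CPM of Yap1 against 3.85 and 3.65. The ratio for Amotl2 was nearly level, at 8.53, 10.1 and 8.98 CPM.

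**Figure D4:**
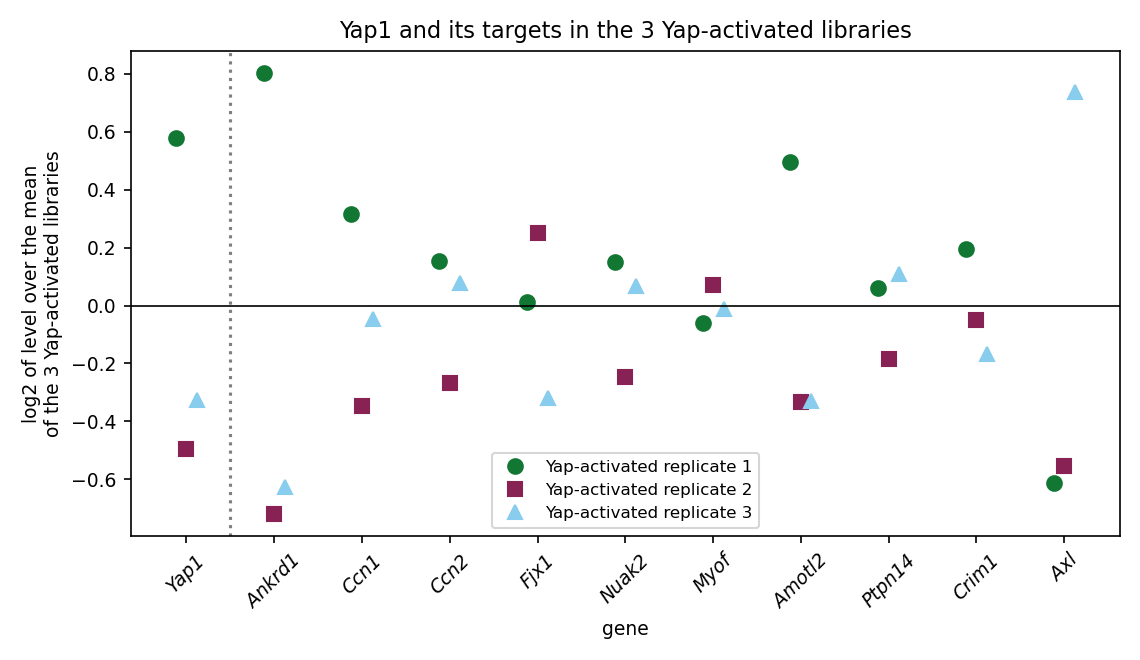
Level of Yap1 (left of the dotted line) and of each target in the 3 Yap-activated libraries, as log2 of the level over the mean of the 3 (y axis). Replicate 1 (green circles) is the highest for Yap1 and for 6 of the 10 targets, and the points of Myof lie closest together. The share of all genes that are highest in replicate 1 was not computed.

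Another 12 genes belong with these 10 to a signature of Yap and Taz targets drawn from human cancers. Of the 12, 9 rose, 2 fell and 1 did not pass, where 29.8% of all genes tested were called higher and 29.7% lower. Their median log2 fold change was 1.25, against 0.01 over all genes tested. Both signature genes that fell are thus among the 12, and neither set of genes was chosen without knowledge of these data. F3, the gene of tissue factor, which starts blood clotting, went from 20.9, 16.0 and 18.3 CPM to 631, 883 and 1105 CPM (log2 fold change 5.57), with its lowest Yap-activated value in replicate 1, where Yap1 was highest. Gadd45a, a stress gene, rose by 4.52 on the log2 scale and Arhgef17 by 2.31. The growth factor gene Tgfb2 rose by 1.74, Rbms3 by 1.57, the Hippo kinase gene Lats2, which inhibits Yap, by 1.43, and Ccdc80 by 1.07. Asap1 and Dock5 rose by 0.56 and 0.51. Asap1 (adjusted p = 0.0201) no longer passed when Normal replicate 1 was left out (adjusted p = 0.0685), nor without Normal replicate 2 (0.0756), nor without Yap-activated replicate 3 (0.0517).

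Igfbp3, a secreted binder of insulin-like growth factors, went from 118, 70.3 and 79.7 CPM to 45.3, 30.6 and 48.9 CPM (log2 fold change -1.10, adjusted p = 0.00663). Foxf2, a transcription factor of gut mesenchyme, was at -0.84 (adjusted p = 0.0195), and did not pass when Normal replicate 1 (adjusted p = 0.0745) or Yap-activated replicate 1 (0.0545) was left out, nor with library totals alone (0.261). Nt5e, the CD73 nucleotidase, had 166 CPM in Yap-activated replicate 1, below all Normal libraries, and 401 and 409 CPM in the others, above them. Its log2 fold change was 0.65 (adjusted p = 0.117), and without that library it passed at 0.98 (adjusted p = 3.70e-04). Nt5e also passed with DESeq2 (0.66, adjusted p = 0.0441) and with library totals alone (1.16, adjusted p = 0.0180), 3 of the 16 alternatives in all.

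**Figure D5:**
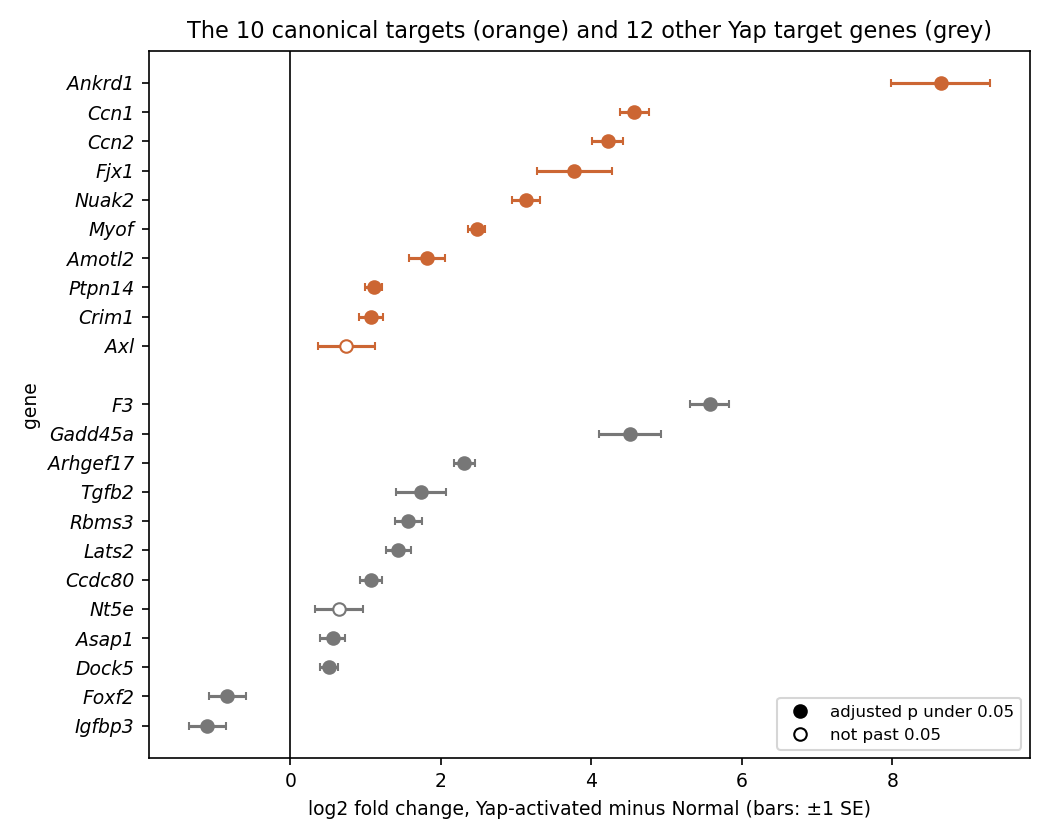
Log2 fold change of Yap-activated minus Normal (x axis, bars ±1 SE) for the 10 canonical targets (orange) and the 12 other signature genes (grey), with open circles for genes not past an adjusted p of 0.05. Ankrd1 at 8.64 is farthest to the right, Axl and Nt5e are open, and Foxf2 and Igfbp3 lie below 0.

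Close relatives and binding partners of the targets moved in both directions. Of 28 such genes 24 were matched in the table and 21 passed the filter. Of these, 5 rose, 7 fell and 9 did not pass, with a median log2 fold change of -0.22. Among the 5, Chrdl2 passed the filter only through the Yap-activated libraries and so had to differ. Over all genes tested 29.8% were called higher and 29.7% lower, so these counts are near the background and set the relatives apart in neither direction. Gas6, the ligand of Axl, went from 859, 831 and 908 CPM in Normal to 29.0, 26.7 and 43.6 CPM in Yap-activated libraries (log2 fold change -4.71, SE 0.22, adjusted p = 3.16e-06), the largest change of the 21. Pros1, a ligand of Tyro3 and Mertk, was at -0.02 (0.48 with library totals alone) and did not pass. Tyro3 fell by 1.14 on the log2 scale, and Mertk, at 0.57, did not pass (adjusted p = 0.322) and was at -0.15 without Yap-activated replicate 3.

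Among relatives of the Yap-binding targets, the motin genes Amot and Amotl1 rose by 1.18 and 0.54 on the log2 scale, less than Amotl2 at 1.82 (the differences between genes were not tested). Amot (adjusted p = 0.0208) did not pass when any 1 of the Normal libraries was left out, at an adjusted p of 0.0617, 0.0706 and 0.0699 without replicates 1, 2 and 3. Ptpn21, the closest relative of Ptpn14, was at 0.06 (adjusted p = 0.638), and Nuak1, the relative of Nuak2, at 0.43 (adjusted p = 0.137). Ankrd23, a muscle relative of Ankrd1, was at -0.53 (adjusted p = 0.189).

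Of the large cadherins on which four-jointed kinases act, Fat4 went from 8.91, 6.70 and 10.8 CPM to 1.05, 1.03 and 2.12 CPM (log2 fold change -2.64, adjusted p = 4.35e-04) and Dchs1 fell by 1.31. Fat1, a relative of Fat4, rose by 0.85. The other ferlins did not go with Myof: Fer1l6 fell by 3.56 on the log2 scale, Dysf by 0.88 and Fer1l4 by 0.77, and Fer1l5 was at -0.22 (0.27 with library totals alone) and did not pass. The falls of Dysf and Fer1l4 were not past the threshold with library totals alone (adjusted p = 0.123 and 0.15). Among BMP-binding proteins with repeats like those of Crim1, Bmper rose by 2.31 and Chrdl2 by 2.15 on the log2 scale. Both had a mean of under 3 CPM in Yap-activated tissue. Chrdl2, with 11, 10 and 4 reads in Normal, passed the filter only through the Yap-activated libraries and so had to differ. Kcp (-0.96), Chrd (0.58) and Chrdl1 (-0.53) did not pass. Kcp was at -1.82 (adjusted p = 0.00407) and Chrdl1 at -1.16 (adjusted p = 0.0408) without Yap-activated replicate 3, and Chrd at 0.81 (adjusted p = 0.0352) without Yap-activated replicate 2.

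The genes whose profile over the 6 libraries came nearest to the median profile of the 10 targets were Slc25a24, Cd9, Mybl1, Ripk3 and Fam71f2. Nearness is the Euclidean distance between profiles of log2 CPM centred on their means, and was 0.198 to 0.280 for these 5, where the targets themselves lay at 0.208 (Myof) to 5.50 (Ankrd1). Slc25a24, a mitochondrial carrier, went from 27.7 ± 1.43 to 156 ± 7.10 CPM, and the tetraspanin gene Cd9 from 92.9 ± 11.7 to 527 ± 53.1 CPM (SD, n = 3). The log2 fold changes of the 5 genes were 2.49 to 3.40, a direction and size that their selection for nearness over the same libraries had fixed.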

How the data were processed

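The authors deposited read counts, whole numbers that were not normalized, for each gene symbol in the 6 libraries. STAR 2.4.2a, DESeq2, GRCm38 and mm10 are named in the submitters' processing notes. How reads were counted, with which annotation and whether by strand, is not given in the labels or the file. Counts were tested in R 4.3.3 with edgeR 4.0.16: filterByExpr with a minimum count of 10, TMM scaling, and a robust quasi-likelihood F-test comparing the groups, fitted on all 6 libraries. P-values were adjusted by Benjamini-Hochberg over the 14600 genes tested, with a threshold of 0.05. The SE is the log2 fold change over the square root of F. Coordinates and exon lengths come from GENCODE mouse release 21 (GRCm38), in which 21523 of 21526 symbols were found, and sequences from RefSeq (GRCm38.p6).

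The targets, the 12 other signature genes, the relatives and partners, the markers and the rule for named genes (all genes of the first 3 lists, Yap1, TEAD genes and the 5 nearest profiles) were chosen with earlier results of these data known. Profiles used log2 of CPM plus 0.5. As alternatives, libraries were scaled by DESeq2 size factors, by totals or by TMM leaving out the 50 most abundant genes; the filter was dropped or set at 1 CPM in 3 libraries; dispersions were made non-robust; DESeq2 1.42.0 and voom (limma 3.58.1) replaced edgeR; and a replicate block, thinning to the smallest total, a null of a 2-fold change and the omission of each library in turn were tried.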

Additional observations from a re-analysis of the deposited data

How the results depend on the processing

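Between 9 and 10 targets were called higher under each of the 16 alternatives that test against no change, with 9 in each fit that left out a library, and all 10 only with DESeq2 and with library totals alone, where Axl passed. Against a 2-fold change 7 targets and 6 of the 12 other signature genes were called higher, and the calls over all genes went from 8682 to 3048, since that test asks for more. Over the other alternatives the 12 signature genes had 8 to 10 called higher. No log2 fold change of the 10 targets or the 12 changed sign. Signs reversed for 4 partner genes: Vgll4 was at 0.048 and Fer1l5 at 0.27 with library totals alone, Mertk at -0.15 without Yap-activated replicate 3 (0.91 without Yap-activated replicate 2), and Pros1 at 0.48 with library totals alone and at 0.07, 0.10 and 0.16 without Normal replicate 1, Yap-activated replicate 1 and Yap-activated replicate 2 (-0.38 without Yap-activated replicate 3). In library totals alone the shift of the scale itself moves values up; for the others the cause was not tested. With library totals alone Nt5e, Ptpn21, Nuak1 and Chrd also passed.

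The labels give both groups replicates 1 to 3 without saying that a number pairs libraries. Deviations from the group means correlated at 0.07, 0.04 and 0.08 between same-numbered libraries, each the highest for its Normal library. For Normal replicate 2 the value, 0.0382, barely exceeded the 0.0359 with Yap-activated replicate 1. Correlations this low do not show whether the numbers pair libraries. With the replicate block 9 targets, 9 of the 12 and 8561 genes in all were called, and Axl was at 0.61 (adjusted p = 0.134). Depth limits Ankrd1 and Fjx1 in Normal, where 25 and 24 reads set the level.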
